A study of Mus musculus with 96 samples.

Results

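Intron retention events are the splicing events of these cells in which a read either crosses the boundary between an exon and an intron or joins the exons on both sides of that intron. The deposited splicing table holds 80855 events, of which 31865 are annotated as intron retention. The members described here are the 8067 of these (25.3%) with a value in at least 20 of the 96 cells, so they were chosen by the presence of a value in enough cells and not by its size. They lie in 1562 genes, of which 1536 (98.3%) were found by symbol in the expression table. The events resolve to 5807 intron edges in 3536 introns. Of these introns, 2271 were measured at both their 5′ and 3′ edges and 1265 at a single edge.

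Introns are removed from precursor RNA by the spliceosome, which reads a short 5′ splice site that usually begins with GT and a 3′ splice site that usually ends with AG. An intron that stays in the RNA can hold the transcript in the nucleus, can bring in a premature stop codon that marks the RNA for nonsense-mediated decay, or can be part of a stable alternative isoform. Retained introns are known from mouse granulocyte maturation, and many genes of RNA-binding proteins carry introns whose retention or alternative splicing lowers their own output.

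All 96 cells were single bone marrow cells of C57BL/6 mice with the genotype ThPOK-/-, a knockout of the transcription factor ThPOK (gene Zbtb7b), and were labelled as bone marrow derived GMP (granulocyte-monocyte progenitors). The marrow of crushed hindlimbs was enriched for CD117, the receptor Kit of progenitor cells, then stained, sorted and captured on a Fluidigm C1 chip, and full-length cDNA was made with a kit that does not mark strand. The series also names wild-type cells, which are not analysed here, so no value below bears on the effect of the knockout, which every cell carries. A deposited list gave 12 cells the state proNeu-1, 31 the state IG2 and 26 the state Multi-Lin-1, while 27 cells had no state. How the states were made is not given in the sources used here. The labels also carry the numbers 078 and 079 for 48 cells each, without saying what they stand for, and both numbers occur in every state. No label names an animal, so the 96 cells count as 1 sample: every SD is over cells, intervals cover the counting of cells only, and no difference between states was tested.

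The labelled cell type was checked against marker genes on the scale of log2(TPM + 1). The mean over primary granule genes such as Elane and Mpo had a median over cells of 10.78 in proNeu-1 cells, 9.21 in IG2 cells, 3.13 in cells with no state and 4.05 in Multi-Lin-1 cells. Mast cell and basophil genes were most prominent among cells with no state, with a median of 3.85 and a highest value of 10.68, against a median of 2.87 in Multi-Lin-1 cells. Of 12 late neutrophil genes, 5 (Ltf, Camp, Mmp9, Cd177 and Retnlg) were at 0 in all cells, 1 was at TPM 1 or more in at least 50% of cells, and the most abundant was Cxcr2. Of 6 T and NK cell genes, Cd3e, Cd3g and Klrb1c were at 0 and Nkg7, the most abundant, gave the list a median over cells of 1.88. Of the B cell genes, Ebf1 and Pax5 were at 0 and Cd79b was the most abundant, with a median of 0 for the list. Monocyte genes had medians of 1.42, 0.965, 0.126 and 0.361 in proNeu-1, IG2, no state and Multi-Lin-1 cells. None of these 10 genes was at TPM 1 or more in at least 50% of all cells. In the same order of states, stem and multipotent genes had medians of 0.911, 1.94, 1.59 and 3.01. Erythroid and megakaryocyte genes had 0.325, 0.371, 1.99 and 1.45, so they too were highest in cells with no state. The median number of genes with TPM 1 or more was 4127.5 in proNeu-1 cells, 3940 in IG2 cells, 2613 in cells with no state and 2950 in Multi-Lin-1 cells. The number of member events with a value went the same way, with medians of 4687.5, 4416, 2209 and 2943 in the same order of states and a range from 41 to 5795 over cells. Read depth itself is unknown.

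The sequences below are those of retained introns on which the results turn, and they show how differently the ends of such introns read. They are GENCODE M21 transcript sequences on GRCm38 (mm10), the build on which 98.5% of the member junctions match an intron of the same gene, and intron numbers are those of the deposited table's gene model. Only introns that lie inside an annotated exon could be read this way. The first pair are whole introns that GENCODE carries in a retained-intron transcript, with the first 6 and last 3 bases in capitals. Intron 4 of Rnf167, an E3 ubiquitin ligase, lies at chr11:70649347-70649444 on the plus strand and is 98 nt long. Intron 2 of Ctla2a, a protease inhibitor related to the propeptide of cathepsins, lies at chr13:60935670-60935957 on the minus strand and is 288 nt long.
Rnf167 intron 4: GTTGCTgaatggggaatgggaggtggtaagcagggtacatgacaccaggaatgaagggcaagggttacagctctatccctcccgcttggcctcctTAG
Ctla2a intron 2: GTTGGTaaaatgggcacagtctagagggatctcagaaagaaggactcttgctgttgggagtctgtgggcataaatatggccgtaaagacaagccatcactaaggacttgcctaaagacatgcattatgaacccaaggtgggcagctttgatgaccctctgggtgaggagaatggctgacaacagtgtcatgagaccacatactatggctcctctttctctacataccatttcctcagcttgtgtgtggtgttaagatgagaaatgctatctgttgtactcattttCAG

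The 5′ splice sites of 3 further retained introns with GT and AG ends are given as 3 exon bases and 6 intron bases, with the first 2 intron bases in capitals. They are intron 6 of the histone H3 lysine methyltransferase Nsd1 (chr13:55213318-55214060, plus strand), intron 6 of the translation helicase Eif4a2 (chr16:23112458-23113166, plus strand) and intron 19 of Ubap2l (chr3:90016772-90017114, minus strand).
Nsd1 intron 6: tcgGTaatg
Eif4a2 intron 6: cgaGTcggt
Ubap2l intron 19: cagGTaatt
The same windows for 3 retained regions of the deposited model without GT and AG at both ends show the contrast: intron 7 of the phosphatase catalytic subunit Ppp1cc (chr5:122174676-122174979, plus strand), intron 7 of the RNA-binding protein gene Hnrnph1 (chr11:50382138-50382536, plus strand) and intron 9 of the methionine adenosyltransferase gene Mat2a (chr6:72434396-72434544, minus strand).
Ppp1cc intron 7: ctgCCcaga
Hnrnph1 intron 7: ctgGGtact
Mat2a intron 9: agtAAcaaa
In all 3 the spliced junction spans more than the region itself.

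Splice site letters were read for the 472 introns inside an annotated exon, on the transcript strand. Introns with a mean retention of at least 0.2 at both edges began with GT and ended with AG in 10 of 23 cases (43.5%), against 264 of 339 introns (77.9%) whose lower edge was under 0.2 and 382 of all 472 (80.9%). The difference followed the kind of junction. Where the spliced junction spanned the intron exactly, 7 of 7 such retained introns had GT and AG ends, against 216 of 219 (98.6%) of those whose lower edge was under 0.2. Among all introns whose spliced junction spanned more than the intron, 52 of 137 (38%) had these ends. Set against CAG for the last 3 exon bases and GTAAGT for the first 6 intron bases, the retained introns matched a median of 5 of 9 positions, against 6 in all 472; with an exact junction the median was 6 in both the 7 retained introns and the 219 others. Introns that began with GTAAG were 2 of the 23 retained ones (8.70%), against 112 of all 472 (23.7%). GTATCC or ATATCC, the start of introns of the minor spliceosome, began 5 of the 472. The median GC content was 39.4% in the retained introns, against 46% in those whose lower edge was under 0.2, and with an exact junction it was 44.8% against 47.6%. These letters could be read for only 14.2% of introns with known ends, so the same check is void over all members.

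Retention is given as percent spliced in (PSI), the authors' fraction from 0 to 1, oriented so that 1 means that every informative read kept the intron at that edge. Most member introns were almost fully spliced in these cells. The mean retention of an event had a median of 0.0076 over the 8067 events, with a mean of 0.0358 ± 0.0925 (SD over events), and 3117 events (38.6%) were at 0 in every cell with a value. A mean under 0.05 was found for 6661 events (82.6%), at least 0.1 for 630 (7.81%), at least 0.2 for 232 (2.88%) and at least 0.5 for 75 (0.930%). The number of cells behind an event had a median of 34 and ran from 20 to 95. At the edge of the selection, the 366 events with values in exactly 20 cells had a median retention of 0 and a mean of 0.0401. The 448 events just outside, with exactly 19 cells, had a median of 0 and a mean of 0.0342.

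In most single cells with a value, the intron was fully spliced. Of 327729 single-cell values of the members, 93.2% were 0, 1.81% were 1 and 2.28% lay from 0.1 to 0.9. Among the 22212 values above 0, 26.7% were 1 and 33.6% lay from 0.1 to 0.9. Cassette exons, exons that are skipped or included as a unit, had 31.8% of 166584 values at 0, 59.2% at 1 and 4.02% from 0.1 to 0.9. Alternative 5′ splice sites had 50.7% at 0 and 36.9% at 1, and alternative 3′ splice sites had 51.1% at 0 and 37.8% at 1. The direction of the PSI of these other types is as deposited, so their shares at 0 and at 1 carry no order. A low share of intermediate values goes with means near 0, so these shares do not show that the members differ from other types in how they mix within a cell. A cell holds few molecules of most RNAs, and reads were amplified by PCR with no molecular identifiers. The part of the number of molecules in the values at 0 and at 1 was not tested.

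**Figure D1:**
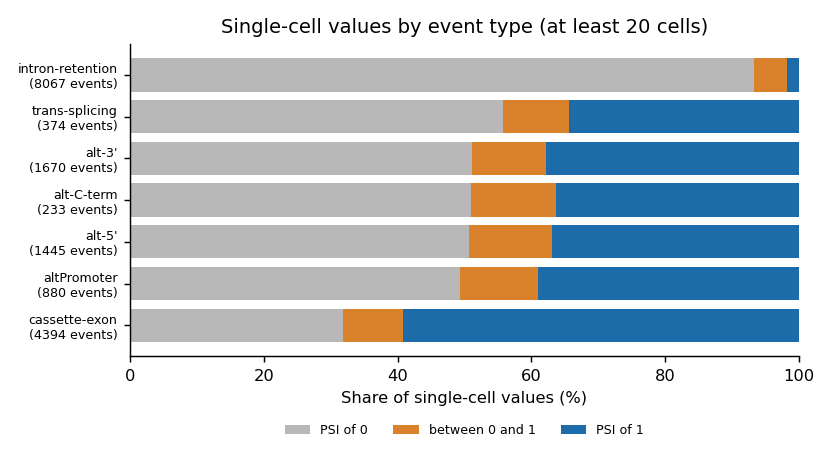
Shares of single-cell PSI values at exactly 0, between 0 and 1, and at exactly 1 (x axis, percent of values) for each type of splicing event with values in at least 20 of 96 cells (y axis). Intron retention has 93.2% of its values at 0 and 1.81% at 1, while cassette exons have 31.8% at 0 and 59.2% at 1.

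Both edges of an intron gave nearly the same retention. Over the 2271 introns with both edges, the mean at the 5′ edge and at the 3′ edge had a Spearman rho of 0.952 and a Pearson r of 0.956, a description in which both edges share the spliced junction and the cells. In the same cell, 4102 of 4303 values above 0 at the 5′ edge (95.3%) were also above 0 at the 3′ edge, against 0.268% where the 5′ edge was at 0. Of 2629 values of at least 0.5 at the 5′ edge, 2418 (92%) were at least 0.5 at the 3′ edge. Values above 0 were therefore seldom seen at a single edge. The edges are not independent measures, because 1 read may cross both in a short intron, and 416 of these introns have at most 100 nt. How events were scored from reads at each edge was not examined. Reads inside the introns were not analysed here. Unspliced precursor RNA and a mature RNA that keeps the intron cannot be told apart in these values.

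**Figure D2:**
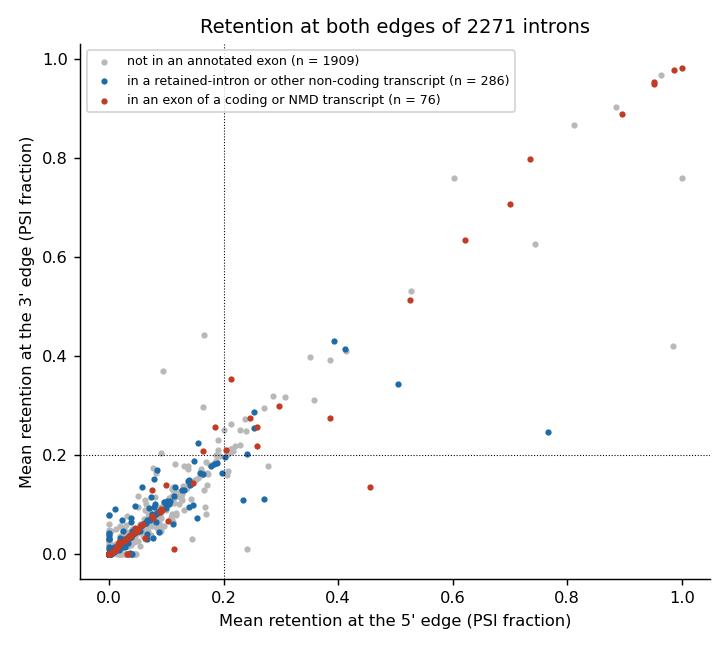
Mean retention (PSI fraction over cells) at the 5′ edge (x axis) and at the 3′ edge (y axis) of 2271 introns, coloured by whether the intron lies in no annotated exon (n = 1909), in a retained-intron or other non-coding transcript (n = 286) or in an exon of a coding or nonsense-mediated decay transcript (n = 76). Most points sit near 0 along the diagonal, and 51 introns lie at or above the dotted lines at 0.2 on both axes.

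A mean retention of at least 0.2 at both edges was found for 51 introns (2.25%) in 46 genes, at least 0.1 for 146 and at least 0.5 for 16, while 953 introns were at 0 at both edges. Just 18 introns were at 0.2 or more at a single edge. Of the 51 regions, 25 are annotated introns, and 26 match no intron of their gene in GENCODE M21. By position, 33 lie in coding sequence, 11 in a 3′ untranslated region, 3 in a 5′ untranslated region and 4 in genes without annotated coding sequence. Introns in 3′ untranslated regions reached this level in 11 of 49 cases (22.4%), against 33 of 2098 coding introns (1.57%). Of these 11 regions, only Zfp207 intron 14, Tmpo intron 7 and Luc7l3 intron 13 are annotated introns. Over all positions, 25 of 1719 annotated introns (1.45%) reached this level, against 26 of 552 regions (4.71%) that match no annotated intron. Introns inside an exon of a coding or nonsense-mediated decay transcript reached it in 16 of 76 cases (21.1%), those in retained-intron or other non-coding transcripts in 7 of 286 (2.45%) and those in no annotated exon in 28 of 1909 (1.47%). Of the 16, 14 have a spliced junction that spans more than the intron region, so that the spliced form also skips exon sequence. Where the junction spanned the intron exactly, 23 of 1513 (1.52%) reached this level, against 28 of 758 (3.69%) where it spanned more.

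Length and host expression followed retention weakly. Among introns of at most 100 nt, 11 of 416 (2.64%) were at 0.2 or more at both edges, and among those of more than 1000 nt it was 2 of 214 (0.935%). Across 2238 introns, which share the same cells, retention and length had a Spearman rho of -0.0816, and retention and the host gene's mean log2(TPM + 1) a rho of 0.0025 and an r of -0.0316. Host expression instead followed how many cells gave a value, with a rho of 0.786. Within an event, the host gene's mean log2(TPM + 1) in cells above 0 was compared with that in cells at 0 for 1916 events with at least 3 cells of each. The median difference was 0.10, and it was negative for 861 events (44.9%).

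The highest retention was close to complete. Intron 11 of the GTPase gene Nras, in its 3′ untranslated region (chr3:103065606-103066239, plus strand), averaged 0.986 over 72 cells at the 5′ edge and 0.979 over 74 cells at the 3′ edge, with 1 cell at 0. Intron 14 of Zfp207, a spindle and kinetochore zinc finger protein (chr11:80403409-80403600, plus strand), averaged 0.952 ± 0.209 over 59 cells, of which 56 were at 1 and 2 at 0. Both regions were present in the RNA of nearly every cell measured, and for them the spliced form was the rare one. The Nras region is no annotated intron: it lies in an exon of a coding or nonsense-mediated decay transcript, and its spliced form skips more than the region. Intron 8 of Tnfaip8, intron 16 of the adhesion receptor gene Gpr56 and intron 6 of the glyoxalase gene Glo1 averaged 0.951, 0.895 and 0.735 at the 5′ edge, and these 3 regions are of the same kind as that of Nras. Some of the highest values come from genes with copies or pseudogenes: the pseudogene Pisd-ps1, and Gm21811, whose spliced junction spans 140344 nt. How reads that match several copies were assigned is not given in the sources used here, so these values are uncertain.

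A second group of introns was retained in some cells and spliced in others. Intron 7 of Tmpo, the gene of the lamina-associated polypeptides (chr10:91153181-91153277, minus strand), averaged 0.744 over 43 cells at the 5′ edge and 0.626 over 41 cells at the 3′ edge. Intron 8 of Tardbp, which encodes TDP-43 (chr4:148617101-148617282, minus strand, 3′ untranslated region), averaged 0.621 ± 0.458 over 46 cells, with 30 cells at 0.5 or more and 15 at 0. Intron 4 of the SUMO protease gene Senp1 (chr15:98085101-98087085, minus strand) averaged 0.527 ± 0.50 over 22 cells, with 10 cells at 0 and 11 at 1. The SD of these introns is near the largest that a mean of this size allows, because few cells lay between. Intron 16 of the nucleosome assembly gene Nap1l1 (chr10:111496106-111496184, plus strand) averaged 0.526 ± 0.404 over 54 cells, with 15 at 0 and 8 at 1, so more of its cells lay between. The Tardbp and Nap1l1 regions also lie in exons of coding or nonsense-mediated decay transcripts and are no annotated introns, while those of Tmpo and Senp1 are annotated introns. Over the 41 introns with means from 0.2 to 0.8 at both edges, 56.5% of 1424 values at the 5′ edge were 0, 19.7% were 1 and 16.4% lay from 0.1 to 0.9.

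Lower means were found for the following introns. Vmp1, a membrane protein of the endoplasmic reticulum needed for autophagy, averaged 0.414 ± 0.474 over 52 cells at intron 12 (chr11:86585452-86586495, minus strand), with 28 cells at 0 and 16 at 1. Rnf167 intron 4, whose sequence is printed above, averaged 0.412 ± 0.487 over 30 cells, with 16 at 0 and 10 at 1. The intermediate filament gene Vim averaged 0.286 ± 0.356 over 70 cells at intron 7 (chr2:13581699-13582472, plus strand), with 35 cells at 0 and 2 at 1. Vim and Nap1l1 thus held more intermediate cells than Vmp1, Rnf167 and Senp1. Means from 0.2 to 0.4 were also found for the polyamine acetyltransferase gene Sat1 at intron 3 (chrX:155213668-155213896, minus strand; 0.271), the topoisomerase gene Top2a at intron 37 (0.237), the cohesin loader Nipbl at intron 10 (0.358) and the bromodomain gene Brd2 at intron 8 (0.308). The Top2a and Nipbl regions match no intron of their gene in GENCODE M21. All 4 measured introns of Ctla2a were retained, with 5′ edge means of 0.351, 0.393, 0.211 and 0.253 for introns 1 to 4, and they share transcripts. Ctla2a has a close paralog, Ctla2b, so its values are uncertain in the same way.

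At the other end, several introns of ribosomal protein genes were at 0 in every cell with a value. Intron 3 of Rpl26 was at 0 in all 95 cells with a value, and intron 6 of Rpl18, intron 2 of Rpl21, intron 4 of Rpl27, intron 6 of Rps10 and intron 2 of Rps15a were at 0 in all 94 cells. Intron 3 of the ferritin light chain gene Ftl1 averaged 0.0234, intron 3 of the snoRNA host gene Gas5 0.0238 and intron 1 of the glutathione peroxidase gene Gpx1 0.0225, each over 95 cells. Of the 29 introns of ribosomal protein genes with both edges, 1 (3.45%), Rpl22l1 intron 2, reached a mean of 0.05 at both edges, against 352 of all 2271 (15.5%). Ribosomal protein genes have many processed pseudogenes, which lack the introns, and how such reads were assigned is not given.

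Genes for RNA-binding proteins held many introns with some retention. Among introns of serine/arginine-rich splicing factors and their relatives, 19 of 57 (33.3%) reached 0.05 at both edges, with a median event retention of 0.0273 against 0.0076 over all members. This list, called serine/arginine-rich below, also holds relatives such as Ddx5 and Bclaf1, in which several of the 19 introns lie. In hnRNP genes, whose proteins package nuclear RNA, 16 of 54 introns (29.6%) reached 0.05 at both edges, with a median of 0.0210. Several of these 16 lie in Hnrnpu. Of the 54, 4 (7.41%) reached 0.2, against 51 of all 2271 introns (2.25%): Tardbp intron 8, Hnrnph1 intron 7, Hnrpdl intron 6 and Hnrnpu intron 2. The regions of Tardbp, Hnrnph1 and Hnrpdl match no annotated intron, and their spliced junctions span more than the region. Genes of the core spliceosome had 7 of 38 (18.4%) at 0.05 and none at 0.2. These lists were chosen with earlier results of these data known, so their counts are a description beside the background and no test was made. Within the lists, Bclaf1 intron 9 averaged 0.188 at the 5′ edge and 0.184 at the 3′ edge, Hnrnpa2b1 intron 5 averaged 0.164 and 0.162, and Srsf3 intron 6 averaged 0.0689 and 0.0700. Members exist for 18 of the 27 serine/arginine-rich genes, 18 of the 25 hnRNP genes and 15 of the 30 core spliceosome genes.

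A further list held genes known from textbooks for a regulated or detained intron, and every measured intron of these genes was counted, whether or not it is the known one. They reached 0.05 at both edges in 5 of 16 cases (31.25%), against 15.5% of all members, with a median event retention of 0.0475. The list holds Mat2a, whose last introns are known to respond to S-adenosylmethionine, and the CLK kinases, which phosphorylate serine/arginine-rich proteins. Mat2a intron 9 averaged 0.205 ± 0.379 over 44 cells, with 32 at 0, and its neighbour intron 8 averaged 0.185 at the 5′ edge and 0.258 at the 3′ edge. The intron 9 region matches no annotated intron. Its spliced junction spans 585 nt, the length of the stretch from intron 8 through intron 9. The values of introns 8 and 9 are therefore not separate observations, and both count among the 5. Clk1 intron 7 averaged 0.0539 and 0.0544. Hosts of snoRNAs reached 0.05 in 5 of 19 introns (26.3%), among them Eif4a2 intron 6, which averaged 0.385 over 46 cells at the 5′ edge and 0.276 over 60 at the 3′ edge. Few introns could be measured in the other lists. Genes of nonsense-mediated decay had 6 introns with both edges, of which Rbm8a intron 3 reached 0.05, and granule and myeloid genes had 5, of which intron 7 of the progenitor transcription factor gene Myb (chr10:21148437-21148777, minus strand) averaged 0.158 at the 5′ edge and 0.164 at the 3′ edge. Of these genes, 4 of 20 granule and myeloid genes (Cd34, Ctsg, Myb and Myc) had a member.

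**Figure D3:**
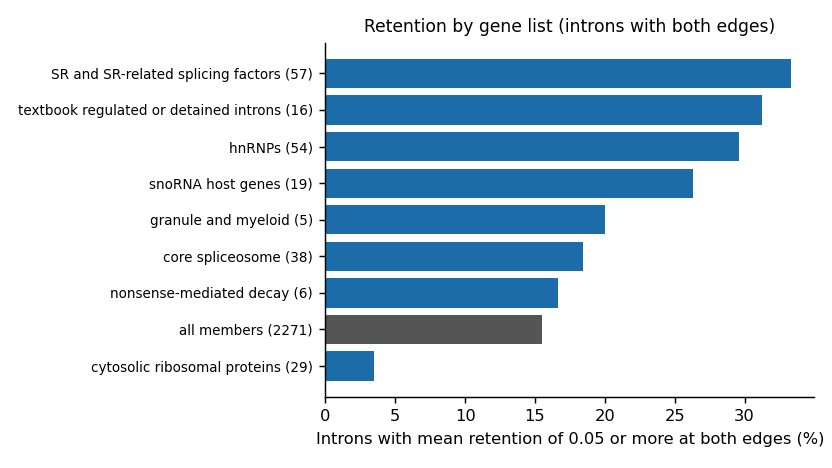
Percent of introns with a mean retention of at least 0.05 at both edges (x axis) in each gene list (y axis, number of introns in brackets), with all members in grey. Serine/arginine-rich splicing factors with their relatives lie at 33.3% and hnRNP genes at 29.6%. Ribosomal protein genes lie at 3.45% and all members at 15.5%.

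Averaged over a cell's member events, retention was highest in cells with no state. Among proNeu-1 cells the median of this mean was 0.0326 (0.0165 to 0.0470), and among IG2 cells it was 0.0285 (0.0141 to 0.0609). Cells with no state had a median of 0.0471 (0.0110 to 0.0674), and Multi-Lin-1 cells 0.0286 (0.0161 to 0.0590). The ranges overlap widely. The means were 0.0318 ± 0.0104, 0.0312 ± 0.0110, 0.0414 ± 0.0164 and 0.0331 ± 0.0125 (SD over 12, 31, 27 and 26 cells), so the gap between cells with no state and the states is smaller than the SD over cells. Without the 51 retained introns the means were 0.0223, 0.0199, 0.0283 and 0.0205 in the same order. Cells with no state also had the fewest genes and the highest medians of mast cell and basophil genes and of erythroid and megakaryocyte genes. The part of any of these in their retention was not tested.

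The number of genes detected moved with retention differently in each state. Over all 96 cells the Spearman rho was -0.168. It was 0.566 in the 12 proNeu-1 cells, 0.202 in the 31 IG2 cells, -0.417 in the 27 cells with no state and 0.0065 in the 26 Multi-Lin-1 cells. These are descriptions over cells of 1 sample, and both measures come from the same library. In proNeu-1 the label numbers stood apart: the 6 cells with 079 ran from 0.0339 to 0.0470 and the 6 with 078 from 0.0165 to 0.0313, without overlap. In cells with no state the means were 0.0426 for 079 and 0.0404 for 078.

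**Figure D4:**
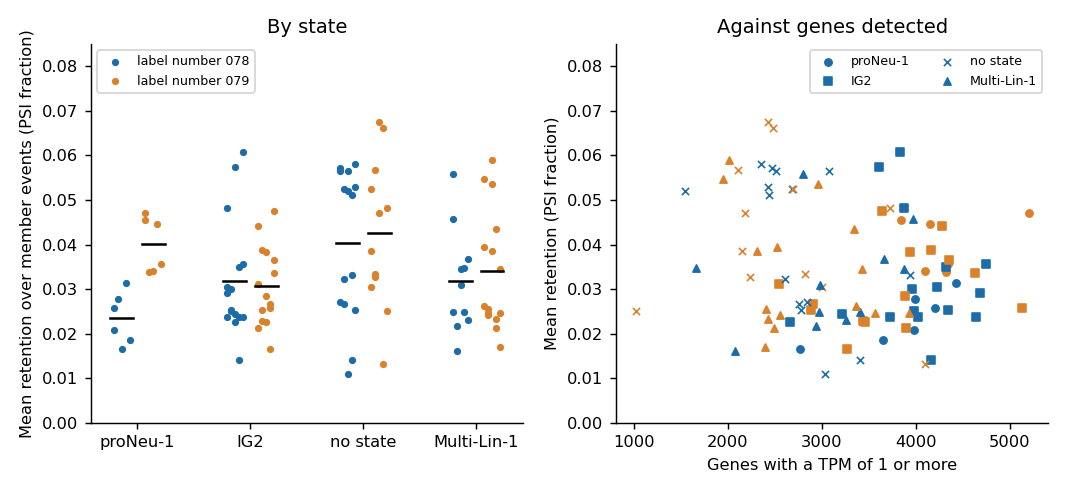
Left, mean retention over the member events of each cell (y axis, PSI fraction) by state. Blue marks label number 078, orange marks 079, and lines mark the mean of each label number within each state. Right, the same value against the number of genes with TPM 1 or more (x axis), with a symbol for each state. Cells with no state reach the highest values (0.0674) and have a mean of 0.0414, and all states overlap.

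Single introns were compared between IG2 and Multi-Lin-1 cells where each state had at least 5 cells with a value. Of 6290 members, 186 (2.96%) differed by at least 0.2 in mean PSI, with 62 (0.986%) higher and 124 (1.97%) lower in IG2. Over all 16464 events of any type, members included, the shares were 4.71% in either direction, 2.21% higher and 2.5% lower. The members' share was therefore below the background, and the median difference was 0. Means under 0.05, found for 82.6% of members, leave little room for a difference of 0.2. The lower share thus does not show that retention varies less between states than other events. Of the introns at 0.2 or more at both edges, 39 could be compared at the 5′ edge. Among these, 5 were higher and 5 lower in IG2 (25.6%). Counted by sign alone, more members were higher in IG2, with 1948 differences above 0, 1312 below 0 and 3030 at 0. With at least 8 cells per state, 16 members were higher and 17 lower by at least 0.2. The comparison of proNeu-1 with IG2 covered 6032 members, of which 108 (1.79%) were higher and 28 (0.464%) lower in proNeu-1, against 2.08% and 1.68% over all 15445 events and 3.76% in either direction. By sign alone, 1292 differences lay above 0 and 1864 below. With at least 8 cells per state, 16 members were higher and 2 lower by at least 0.2. The comparison of cells with no state and Multi-Lin-1 covered 4891 members, of which 144 (2.94%) were higher and 100 (2.04%) lower in cells with no state, against 2.96% and 2.57% over all 11932 events and 5.53% in either direction. By sign alone, 1242 lay above 0 and 1058 below. With at least 8 cells per state, 23 members were higher and 18 lower by at least 0.2. The states differ in the number of cells with a value. The part of this in the counts and signs of all these comparisons was not tested. The first comparison shares its IG2 cells with the second and its Multi-Lin-1 cells with the last. A difference of 0.2 at both edges in the same direction was found for 43 of 1766 introns between IG2 and Multi-Lin-1 (14 higher, 29 lower), 33 of 1688 between proNeu-1 and IG2 (28 higher, 5 lower) and 60 of 1366 between cells with no state and Multi-Lin-1 (37 higher, 23 lower).

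Higher in IG2 than in Multi-Lin-1 was Nsd1 intron 6. At its 5′ edge it ran from 0 to 1 with a median of 1 over 8 IG2 cells, of which 5 were at 0.5 or more (62.5%, exact Clopper-Pearson interval 24.5% to 91.5%). All 7 Multi-Lin-1 cells were at 0, a share for which the interval reaches 41%. The IG2 mean was 0.625 ± 0.518, the 4 proNeu-1 cells averaged 0.456 and the 4 cells with no state were at 0. The ranges meet only at 0, the value of 3 IG2 cells. By label number, IG2 cells averaged 0.667 with 078 (n = 6) and 0.5 with 079 (n = 2). The Multi-Lin-1 cells were mostly of the other number, with 2 cells of 078 and 5 of 079. Neither number had 3 cells of each state, and the part of the label number in this difference was not tested. Rnf167 intron 4 averaged 0.488 ± 0.494 over 17 IG2 cells, of which 8 were at 0.5 or more and 8 at 0, and was at 0 in all 5 Multi-Lin-1 cells. IG2 cells were thus mixed at both introns, while no measured Multi-Lin-1 cell kept either. Host transcripts were detected in both states: over all cells of each state, the mean log2(TPM + 1) of Nsd1 was 4.74 in IG2 and 3.96 in Multi-Lin-1. This mean is not limited to the cells measured at the intron.

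Other introns differed in the same direction. Intron 4 of Nfe2, a transcription factor of erythroid cells and megakaryocytes (chr15:103252811-103253042, minus strand), averaged 0.456 over 10 IG2 cells and 0.0720 over 9 Multi-Lin-1 cells at its 3′ edge, and differed by 0.168 at its 5′ edge. Intron 4 of Bola1, a mitochondrial iron-sulphur protein (chr3:96197280-96197549, minus strand), averaged 0.283 ± 0.449 over 15 IG2 cells and was at 0 in all 8 Multi-Lin-1 cells. In both introns the values of the states overlapped. Intron 9 of Tars2, the mitochondrial threonyl-tRNA synthetase, averaged 0.3 over 10 IG2 cells and was at 0 in 5 Multi-Lin-1 cells. Intron 3 of Ube2e3 averaged 0.323 in IG2 cells and 0.0226 in Multi-Lin-1 cells, with no difference at its other edge.

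Lower in IG2 than in Multi-Lin-1 was Vmp1 intron 12. It ran from 0 to 1 with a median of 0 over 16 IG2 cells and from 0 to 1 with a median of 1 over 13 Multi-Lin-1 cells. At 0.5 or more were 4 of 16 IG2 cells (25%, interval 7.27% to 52.4%) and 8 of 13 Multi-Lin-1 cells (61.5%, interval 31.6% to 86.1%). The ranges are the same and the intervals overlap, and the difference of -0.396 in means rests on how many cells lay at each end. The label numbers gave different values in IG2: these cells averaged 0.0779 with 078 (n = 11) and 0.58 with 079 (n = 5), and Multi-Lin-1 cells averaged 0.667 with 078 (n = 6) and 0.601 with 079 (n = 7). Cells with no state averaged 0.476 ± 0.498 over 18 cells, and the 5 proNeu-1 cells 0.2 ± 0.447.

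Ubap2l intron 19 averaged 0.222 ± 0.404 over 16 IG2 cells, of which 4 were at 0.5 or more, and 0.599 ± 0.547 over 5 Multi-Lin-1 cells, of which 3 were and all of which carried 079. Intron 2 of the kinase gene Cdk11b (chr4:155625340-155625530, plus strand, 5′ untranslated region) averaged 0.320 ± 0.475 over 19 IG2 cells and 0.804 ± 0.400 over 6 Multi-Lin-1 cells. Its other edge averaged 0.137 over all cells and differed by -0.173, so both edges did not carry the same value. Intron 14 of Parp8 averaged 0.0199 ± 0.0546 over 16 IG2 cells and 0.398 ± 0.545 over 5 Multi-Lin-1 cells, again all with 079. Intron 2 of Krit1 averaged 0.1 over 10 IG2 cells and 0.5 over 6 Multi-Lin-1 cells. Intron 3 of Crlf3, intron 1 of Nagk and intron 7 of Sept1 were at 0 in all 10, 9 and 6 IG2 cells and averaged 0.324, 0.30 and 0.296 in Multi-Lin-1 cells. In each of these introns some Multi-Lin-1 cells were also at or near 0.

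Between proNeu-1 and IG2, Clk4 and Adipor1 were higher in proNeu-1. Intron 8 of Clk4, a CLK kinase (chr11:51273169-51273450, plus strand, 282 nt), ran from 0 to 1 with a median of 0.613 over 6 proNeu-1 cells, of which 3 were at 0.5 or more (50%, interval 11.8% to 88.2%), and was at 0 in all 8 IG2 cells, with an interval up to 36.9%. Intron 7 of the adiponectin receptor gene Adipor1 (chr1:134431251-134431529, plus strand) ran from 0 to 1 with a median of 0.536 over 5 proNeu-1 cells and from 0 to 0.181 with a median of 0 over 13 IG2 cells. Both introns overlapped between the states only in cells at or near 0. Cells with no state averaged 0.125 at the Clk4 intron and 0.373 at the Adipor1 intron, over 8 cells each. Tmpo intron 7 was at 1 in all 6 proNeu-1 cells and averaged 0.602 ± 0.438 over 13 IG2 cells, of which 9 were at 0.5 or more. Intron 7 of Ube2e3, an E2 ubiquitin-conjugating enzyme, averaged 0.497 over 6 proNeu-1 cells and 0.0772 over 14 IG2 cells. Intron 7 of the cyclin gene Ccni averaged 0.8 over 5 proNeu-1 cells and 0.364 over 11 IG2 cells at its 3′ edge.

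Some introns were lower by at least 0.2 in proNeu-1. Intron 13 of Luc7l3, a partner of the U1 particle (chr11:94291579-94292393, minus strand), averaged 0.0969 ± 0.237 over 6 proNeu-1 cells and 0.324 ± 0.433 over 15 IG2 cells at its 3′ edge, while cells with no state averaged 0.591 and Multi-Lin-1 cells 0.335, over 9 cells each. Intron 2 of the tyrosine phosphatase gene Ptpn7 averaged 0.125 over 8 proNeu-1 cells and 0.375 over 8 IG2 cells at its 3′ edge, while its 5′ edge averaged 0.766 over all cells and differed by -0.107. Intron 2 of the nuclear envelope gene Nrm averaged 0.00251 over 7 proNeu-1 cells and 0.231 over 13 IG2 cells at its 5′ edge, while its 3′ edge averaged 0.0345 over all cells and differed by -0.0769. Intron 5 of the lysophospholipid acyltransferase gene Lpcat3 was at 0 in all 6 proNeu-1 cells and averaged 0.222 over 9 IG2 cells, and intron 1 of Ik was at 0 in all 7 proNeu-1 cells and averaged 0.229 over 13 IG2 cells. In all 5 introns most of the cells of both states lay at or near 0 and the ranges overlapped.

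**Figure D5:**
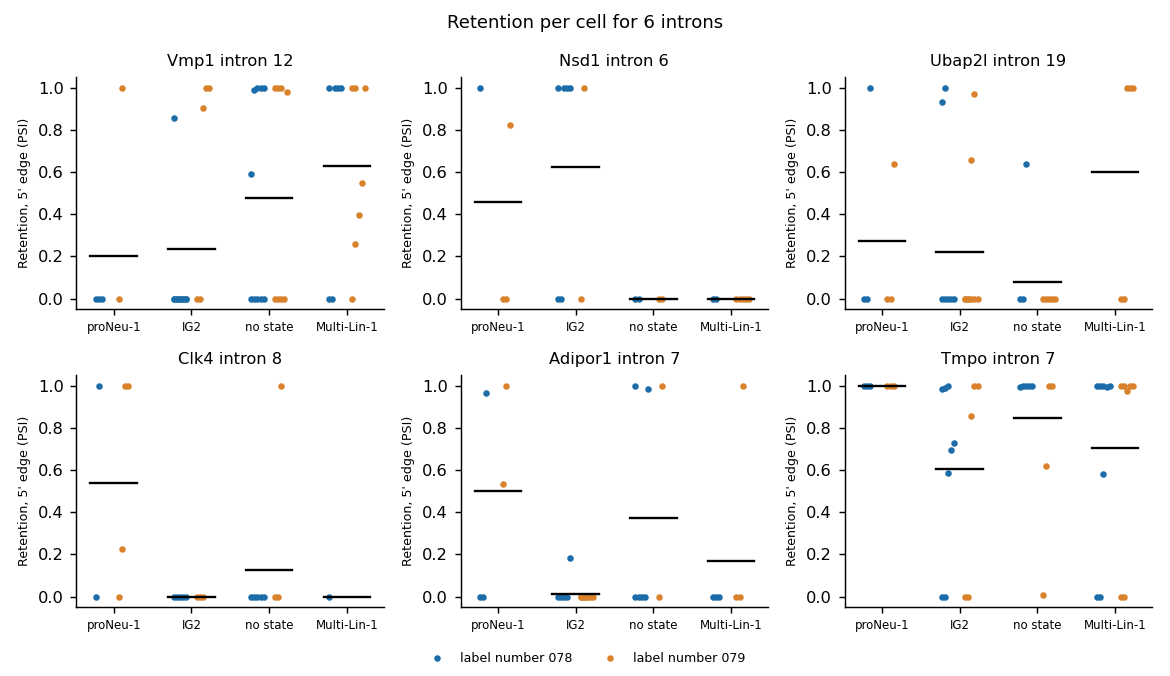
Retention at the 5′ edge (y axis, PSI fraction) of single cells in proNeu-1, IG2, no state and Multi-Lin-1 (x axis) for introns of Vmp1, Nsd1, Ubap2l, Clk4, Adipor1 and Tmpo, with lines at the means and colours for the label numbers. Points gather at 0 and 1; the 7 Multi-Lin-1 cells at the Nsd1 intron and the 8 IG2 cells at the Clk4 intron are all at 0, and the 6 proNeu-1 cells at the Tmpo intron are all at 1.

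Several retained introns had similar means in every state, among them introns of Vim, Zfp207 and Nap1l1. Vim intron 7 averaged 0.263 in 9 proNeu-1 cells, 0.255 in 24 IG2 cells, 0.331 in 17 cells with no state and 0.296 in 20 Multi-Lin-1 cells. Zfp207 intron 14 averaged 1 in 8 proNeu-1 cells, 0.955 in 22 IG2 cells, 0.949 in 16 cells with no state and 0.923 in 13 Multi-Lin-1 cells. Nap1l1 intron 16 averaged 0.510 in 6 proNeu-1 cells, 0.595 in 25 IG2 cells, 0.468 in 10 cells with no state and 0.445 in 13 Multi-Lin-1 cells. These gaps are small beside the SD over cells, which with these numbers of cells does not show that the states are alike. Gaps were larger at intron 9 of the tropomyosin gene Tpm3 and at Myb intron 7, whose mean over all cells was under 0.2. The Tpm3 intron averaged 0.376 in 12 proNeu-1 cells, 0.221 in 31 IG2 cells, 0.196 in 18 cells with no state and 0.234 in 21 Multi-Lin-1 cells. The Tpm3 region matches no annotated intron. Myb intron 7 averaged 0.131 in 10 proNeu-1 cells, 0.115 in 20 IG2 cells, 0.167 in 12 cells with no state and 0.333 in 6 Multi-Lin-1 cells. Of the Myb cells, 3 of 20 in IG2 and 2 of 6 in Multi-Lin-1 were at 0.5 or more, so the difference of -0.218 rests on 5 cells.

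Introns of splicing genes that differed by at least 0.2 did so in both directions. Between IG2 and Multi-Lin-1, 3 of 173 events in serine/arginine-rich genes were higher and 7 lower (5.78%). In hnRNP genes 3 of 159 were higher and 3 lower (3.77%). The share was 2.96% over all members and 4.71% over all events of any type. Between proNeu-1 and IG2, 6 of 169 were higher and 5 lower in serine/arginine-rich genes (6.51%), and 2 of 158 higher and 1 lower in hnRNP genes (1.90%). The share was 2.25% over all members and 3.76% over all events. Between cells with no state and Multi-Lin-1, 11 of 167 were higher and 4 lower in serine/arginine-rich genes (8.98%). In hnRNP genes 6 of 146 were higher and 8 lower (9.59%). The share was 4.99% over all members and 5.53% over all events. Several of the counted events share an intron, as for Srsf6 intron 5 and Bclaf1 intron 9. By sign alone, the serine/arginine-rich events had 79 differences above 0 and 50 below for IG2 against Multi-Lin-1, and 37 above and 85 below for proNeu-1 against IG2. The hnRNP events had 75 above and 44 below, and 33 above and 83 below, in the same comparisons. Over all members the signs leaned the same way, with the counts given above. Intron 8 of Hnrnpr averaged 0.194 in 20 IG2 cells and 0.405 in 13 Multi-Lin-1 cells. Intron 6 of the RNA helicase gene Ddx5 averaged 0.198 ± 0.374 in 16 IG2 cells and was at 0 in all 13 Multi-Lin-1 cells. Intron 6 of Srsf5 averaged 0.242 in 26 IG2 cells and was at 0 in 11 Multi-Lin-1 cells at its 3′ edge. These 3 went in both directions, and each overlapped between the states at 0. Intron 3 of Tra2b averaged 0.238 in 13 cells with no state and 0.0101 in 11 Multi-Lin-1 cells, and it was at 0 in all 8 proNeu-1 cells and at 0.00405 in 21 IG2 cells.

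In the regulated and detained list, more differences lay above 0 than below between IG2 and Multi-Lin-1. Of its 42 events, 3, all in Mat2a, were higher by at least 0.2 and none lower. A difference above 0 was found for 34 events and below 0 for 5, and the median difference was 0.0560. Over all members 1948 differences lay above 0 and 1312 below, with a median of 0. Mat2a intron 9 averaged 0.298 ± 0.442 over 20 IG2 cells, of which 6 were at 0.5 or more, and 0.0424 ± 0.104 over 6 Multi-Lin-1 cells, of which none was. The neighbouring Mat2a intron 8 averaged 0.326 over the same number of IG2 cells and 0.116 over 6 Multi-Lin-1 cells at its 3′ edge. As said above, the values of these introns are not separate observations. Cell numbers differed between the states, as at these Mat2a introns, and their part in the signs was not tested. Events of 1 gene share its reads, and the list has members in 6 of its 15 genes. Between proNeu-1 and IG2 its median difference was -0.0535, with 12 events above 0 and 28 below, and the 2 events higher by at least 0.2 were both edges of Clk4 intron 8. No event in a ribosomal protein gene differed by 0.2 in any of the 3 comparisons (0 of 164 each).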

How the data were processed

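Single ThPOK-/- cells were sequenced as Fluidigm C1 libraries. Per the submitters' processing notes, Bowtie2, RSEM and STAR and the builds mm9 and mm10 were used; roles and versions are not given. Splicing was deposited by the authors as fraction values (PSI) per event and cell, and expression by the authors on the log2 scale, as log2(TPM + 1) by the deposited table's name and its totals (1000000 per cell after back-transformation). Neither holds read counts, so depth is unknown and genes at a TPM of at least 1 stand in for it. A further 1142 columns of cells that no label maps, and 511 state entries, were not used. Doublets were not called, because callers work on counts.

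PSI was oriented by coordinates: PSI itself where the examined junction is an exon-intron boundary, and 1 minus PSI where it is the spliced junction. Of 2140 pairs of reciprocal events, 1973 (92.2%) gave means within 0.05 and the largest gap was 0.591. Introns were placed on GENCODE M21 (GRCm38). States were compared as means over cells (at least 5 cells each, difference of at least 0.2), without tests. Named events were the 10 in the most cells, the 8 highest and 8 lowest means, the 5 largest SDs, up to 8 of the largest differences each way for IG2 against Multi-Lin-1 and up to 5 for proNeu-1 against IG2 (same sign in both label numbers where each has 3 cells of each state), and introns of the gene lists. Members and lists were chosen with earlier results of these data known. Introns such as those of Vim, Nap1l1, Tpm3 or Sat1 were named for a retention of at least 0.2 at both edges, after their values were seen. Scripts were tested on simulated data. The tools were SciPy 1.17.1, pandas 2.3.3, NumPy 2.4.6 and matplotlib 3.10.9 under Python 3.11.15. Some items are not reported here.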

Additional observations from a re-analysis of the deposited data

How the results depend on the processing

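Of 120 alternative values, 86 stayed close to the main value and 34 moved. Many of the 86 had little room to move. The median difference between states was 0 in every setting, with 3030 of 6290 differences at 0 for IG2 against Multi-Lin-1. A minimum of 10 or 40 member events per cell dropped no cell, since the lowest number was 41. The count of 86 is therefore no measure of stability. A minimum of 10 cells gave 13796 members and of 30 cells 4983. The count of members differing by 0.2 between IG2 and Multi-Lin-1 (186) was 724 at a difference of 0.1, 39 at 0.3, 334 with at least 3 cells, 33 with at least 8, 40 by medians, 68 with 1 event per intron and 31 with 1 per gene. For proNeu-1 and IG2 (136) these were 651, 29, 276, 18, 46, 49 and 24. For no state and Multi-Lin-1 (244) they were 783, 59, 522, 41, 49, 89 and 33. With label number 078 alone the counts were 72, 32 and 38, and with 079 alone 63, 47 and 50. The balance of higher and lower members turned in some settings. IG2 against Multi-Lin-1 had 62 higher and 124 lower by means and 24 higher and 16 lower by medians. With at least 8 cells per state it had 16 higher and 17 lower. The other comparisons moved with the label number: proNeu-1 against IG2 had 18 higher and 14 lower with 078 and 43 higher and 4 lower with 079, and no state against Multi-Lin-1, with 144 higher and 100 lower over all cells, had 13 higher and 25 lower with 078 and 38 higher and 12 lower with 079. Alternatives chosen after seeing the data gave 116, 88 and 159 with 1 event per intron edge, and 118 and 155 for IG2 and for no state, each against Multi-Lin-1, where the junction spans the intron exactly; the cause was not tested. Mean retention stayed between 0.0283 and 0.0372 (main value 0.0358). No paired analysis was possible because the cells carry no replicate numbers that pair them, and no test was made. Few cells per state, unknown read depth and a single sample limit all differences between states.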
